A study of Chlamydomonas reinhardtii with 5 samples.

Results

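The glyoxylate cycle and alternative oxidase genes are 7 of the 17742 genes counted in *Chlamydomonas reinhardtii*, a unicellular green alga. They were taken by name and not by their values, though earlier results of these data were known: *ICL1* (CHLRE_06g282800v5), *MAS1* (CHLRE_03g144807v5), *CIS2* (CHLRE_03g149100v5), *MDH2* (CHLRE_10g423250v5), *PCK1* (CHLRE_02g141400v5), *AOX1* (CHLRE_09g395950v5) and *AOX2* (CHLRE_03g169550v5). All 7 genes were found in every library, with the lowest count at 37. The study asked how X- and γ-irradiation at a low dose, 6 Gy, and a high dose, 50 Gy, change the transcriptome of wild-type CC-125 cells. RNA-Seq counts were analysed for 5 libraries, 1 each of the γ-irradiated cells at 6 Gy (GR6) and 50 Gy (GR50), the X-irradiated cells at 6 Gy (XR6) and 50 Gy (XR50), and the mock. All cells were grown to mid-exponential phase under constant white light in TAP medium, which supplies acetate as organic carbon and ammonium as nitrogen. γ-Irradiation lasted 1 h at either dose, in unconcentrated cultures in large tubes. X-irradiation lasted 22.2 min at 6 Gy with a tube current of 1 mA and 8.1 min at 50 Gy with 10 mA, in cells concentrated into small tubes. Radiation type thus goes with how the cells were handled and exposed, and these cannot be told apart. Likewise, the step in X-ray dose goes with exposure time and dose rate, and the step in γ-ray dose with dose rate. How the mock was handled, and how long after irradiation the cells were harvested for RNA, is not given in the sources used here.

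The glyoxylate cycle lets a cell build sugars from acetate. It shares citrate synthase and malate dehydrogenase with the citric acid cycle, but isocitrate lyase and malate synthase bypass the steps that release CO2. In *C. reinhardtii*, acetate is a preferred organic carbon source, and most enzymes of the cycle lie in peroxisomal microbodies, with isocitrate lyase as an exception. Alternative oxidase takes electrons from ubiquinol to oxygen in the mitochondrion without pumping protons, past the cytochrome pathway. Of its genes in this alga, *AOX1* is known as the one that responds to nitrate as a nitrogen source, and *AOX2* as the less responsive one.

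The libraries held between 18364833 and 20330055 counts on genes, and reads that did not align made up between 32.2% (XR6) and 41.8% (GR6) of the reads listed. The 7 genes together took 0.678% of the counts on genes in GR6, 0.635% in GR50, 1.10% in XR6, 0.983% in XR50 and 0.900% in the mock. Their levels are given as CPM, the counts scaled by library size, after TMM scaling, which sets the libraries to a common scale through the bulk of the genes. Each fold change is a ratio of these CPM on the log2 scale, with the exact (Clopper-Pearson) 95% interval of the 2 counts behind it. With 1 library per condition no difference from the mock could be tested. These intervals cover counting error only, and no variation between cultures. They may be too narrow even for that, because reads amplified by PCR and carrying no molecular identifiers do not each stand for a molecule. A difference called beyond the counting error below is one whose interval does not include 0. The 2-fold threshold of the study (a log2 value of 1) was used to count changed genes. TMM scaling left the median of all genes between -0.031 and 0.00056 against the mock. Scaling by library totals alone moved that median to 0.095 in GR6, 0.067 in GR50, 0.21 in XR6 and 0.033 in XR50, and small differences of the members depend on this choice.

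The gene that stood out was *AOX2*, which was close to the mock after X-irradiation and nearly absent after γ-irradiation. It lies on chromosome 3 from 3722161 to 3726636 (NCBI v5.5 genome). It had 56 counts in GR6 and 37 in GR50, against 6243 in XR6, 4517 in XR50 and 5110 in the mock. This corresponds to 2.91 CPM in GR6 and 1.84 CPM in GR50, against 313.8 CPM in XR6, 231.3 CPM in XR50 and 282.4 CPM in the mock. Both γ-irradiated libraries were thus far below the other 3, whose levels lay within 1.36-fold of each other. Against the mock, *AOX2* was 97.0-fold lower in GR6 (95% interval 74.6 to 128.6) and 153.8-fold lower in GR50 (111.4 to 218.7). In GR50 no other of the 15513 genes compared had a lower value, and in GR6 only 1 of 15522 did. Only genes with a count in both libraries were compared, so that genes with none after γ-irradiation were left out. The X-irradiated libraries were much nearer to the mock, with a log2-transformed fold change of 0.15 (0.098 to 0.21) in XR6, or 0.36 with library totals, and -0.29 (-0.35 to -0.23) in XR50.

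**Figure D1:**
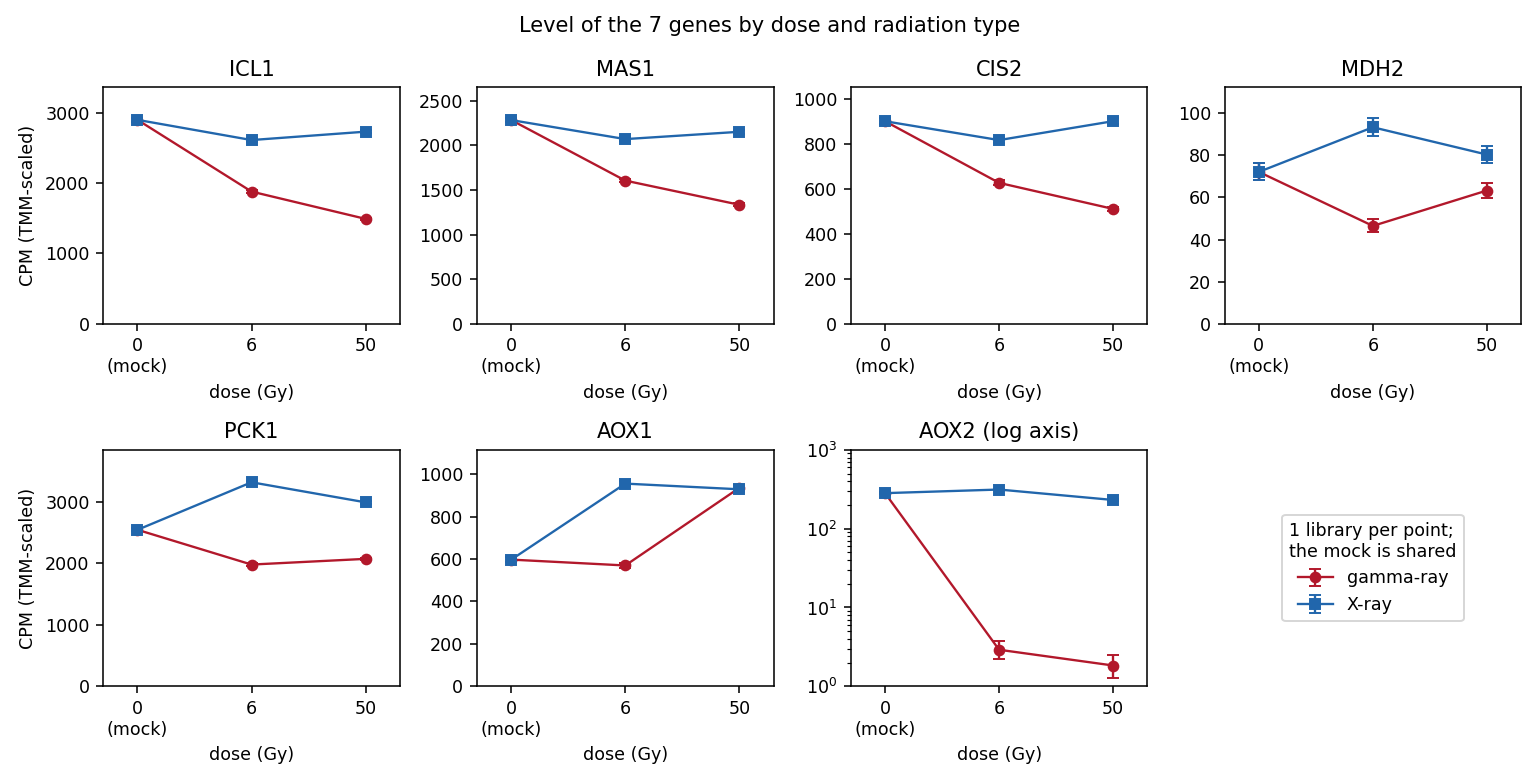
Level of each gene in CPM (TMM-scaled, vertical axis) by dose in Gy (horizontal axis, evenly spaced categories) after γ-irradiation (red circles) and X-irradiation (blue squares), with 1 library per point, the mock drawn in both series at 0 Gy, and bars for the exact 95% Poisson interval of the count. *AOX2*, drawn on a log axis, had 2.91 and 1.84 CPM in GR6 and GR50 against 282.4 CPM in the mock, and *ICL1*, *MAS1* and *CIS2* had less in the γ-irradiated than in the X-irradiated libraries at both doses.

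Compared at the same dose, *AOX2* was 107.8-fold lower in GR6 than in XR6 (82.9 to 142.9) and 126.0-fold lower in GR50 than in XR50 (91.2 to 179.1). Dose and radiation type were tested over the 4 irradiated libraries in an additive fit of 14112 genes, which leaves 1 residual degree of freedom and takes the interaction of dose and type as error. The radiation type effect of *AOX2* was a log2 fold change of -6.86 (standard error 0.40), the lowest of all 14112 genes, with a Benjamini-Hochberg adjusted p of 4.96e-62 by edgeR's quasi-likelihood test. This fit estimated the variance from all genes together, with infinite prior degrees of freedom, so that the p-value does not rest on the spread of *AOX2* itself. With the radiation type fitted alone, the adjusted p was 0.000536, the highest over the alternatives, and the lowest was 6.11e-77 with DESeq2. The direction was the same in both doses, that is, in 2 of 2 pairs of a γ- and an X-irradiated library. At 50 Gy *AOX2* was also lower than at 6 Gy, by a log2 value of -0.66 (-1.30 to -0.040) after γ- and -0.44 (-0.50 to -0.38) after X-irradiation, but its dose effect of -0.53 (standard error 0.33) did not pass (adjusted p = 1.00, edgeR's quasi-likelihood test).

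Among the genes compared, few shared this pattern. Of 10764 genes that averaged 50 counts or more and were counted in every library, 9 genes, *AOX2* included, were more than 8-fold below the mock in both GR6 and GR50. Of these, 6 were within 2-fold of the mock in both XR6 and XR50, whereas 43 genes were more than 8-fold above the mock in both γ-irradiated libraries. This count was chosen after the values of *AOX2* were seen, and the fold changes share the mock. Genes with no count in GR6 or GR50 were left out, so that a gene lost entirely after γ-irradiation could not be counted. The next gene on the side of lower coordinates, 6054 bp away, did not show this pattern, with 4869 counts in GR6 and 4026 in GR50, against 2447 in XR6, 2661 in XR50 and 2677 in the mock. The next gene on the other side, 93 bp away, had at most 6 counts in any library, too few for a comparison.

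*AOX1*, on chromosome 9 from 1828148 to 1832062, did not follow *AOX2*. It had 10959 counts in GR6, 18846 in GR50, 19008 in XR6 and 18133 in XR50, against 10805 in the mock. Its levels were 569.6 CPM in GR6, 935.4 CPM in GR50, 955.4 CPM in XR6 and 928.7 CPM in XR50, against 597.2 CPM in the mock. The libraries thus formed a lower pair, GR6 and the mock, and an upper set of 3 between 928.7 and 955.4 CPM. With library totals the grouping was the same, but the upper set was wider, from 911.5 CPM in XR50 to 1035 CPM in XR6. Against the mock, the log2-transformed fold change was 0.65 (0.61 to 0.68) in GR50, 0.68 (0.64 to 0.71) in XR6 and 0.64 (0.60 to 0.67) in XR50. These are folds of 1.57, 1.60 and 1.56, under the 2-fold threshold. With library totals the log2 values were 0.73 in GR50, 0.88 in XR6 and 0.70 in XR50, also under that threshold. GR6 was at -0.068 (-0.11 to -0.030), a difference that became 0.038 with library totals.

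The dose step of *AOX1* therefore differed between the radiation types. GR50 exceeded GR6 by 0.72 (0.68 to 0.75), whereas XR50 and XR6 differed by -0.041 (-0.070 to -0.012), or -0.18 with library totals. Between the types, GR6 was lower than XR6 by a log2 value of -0.75 (-0.78 to -0.71), and GR50 and XR50 could not be separated at this depth (0.010, -0.019 to 0.040). Whether the dose step differs between the types was not tested, since that term is the error of the fit. The additive fit gave *AOX1* a dose effect of 0.34 (standard error 0.29, adjusted p = 1.00) and a type effect of -0.37 (0.29, adjusted p = 0.543, both by edgeR's quasi-likelihood test), neither of which passed.

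Counts of both oxidase genes were set side by side within a library, where no scaling enters. *AOX2* had 0.00511 counts per count of *AOX1* in GR6 (0.00386 to 0.00664) and 0.00196 in GR50 (0.00138 to 0.00271), against 0.328 in XR6, 0.249 in XR50 and 0.473 in the mock. *AOX2* thus made up 0.508% of the oxidase counts in GR6 and 0.196% in GR50, against 24.7% in XR6, 19.9% in XR50 and 32.1% in the mock. The ratio was also lower in both X-irradiated libraries than in the mock, with intervals that did not overlap. *AOX1* itself had 0.303 counts per count of *ICL1* in GR6, 0.627 in GR50, 0.365 in XR6 and 0.340 in XR50, against 0.206 in the mock, and was thus highest relative to *ICL1* in GR50. Lengths of the mature transcripts were not used here, so that these ratios compare libraries and not the abundance of 2 transcripts. The sum of both genes was 572.5 CPM in GR6 and 937.3 CPM in GR50, against 1269 CPM in XR6, 1160 CPM in XR50 and 879.6 CPM in the mock. The total was therefore lower than in the mock only in GR6, with a log2 value of -0.62 (-0.65 to -0.58), and in GR50 it was 0.092 (0.061 to 0.12).

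**Figure D2:**
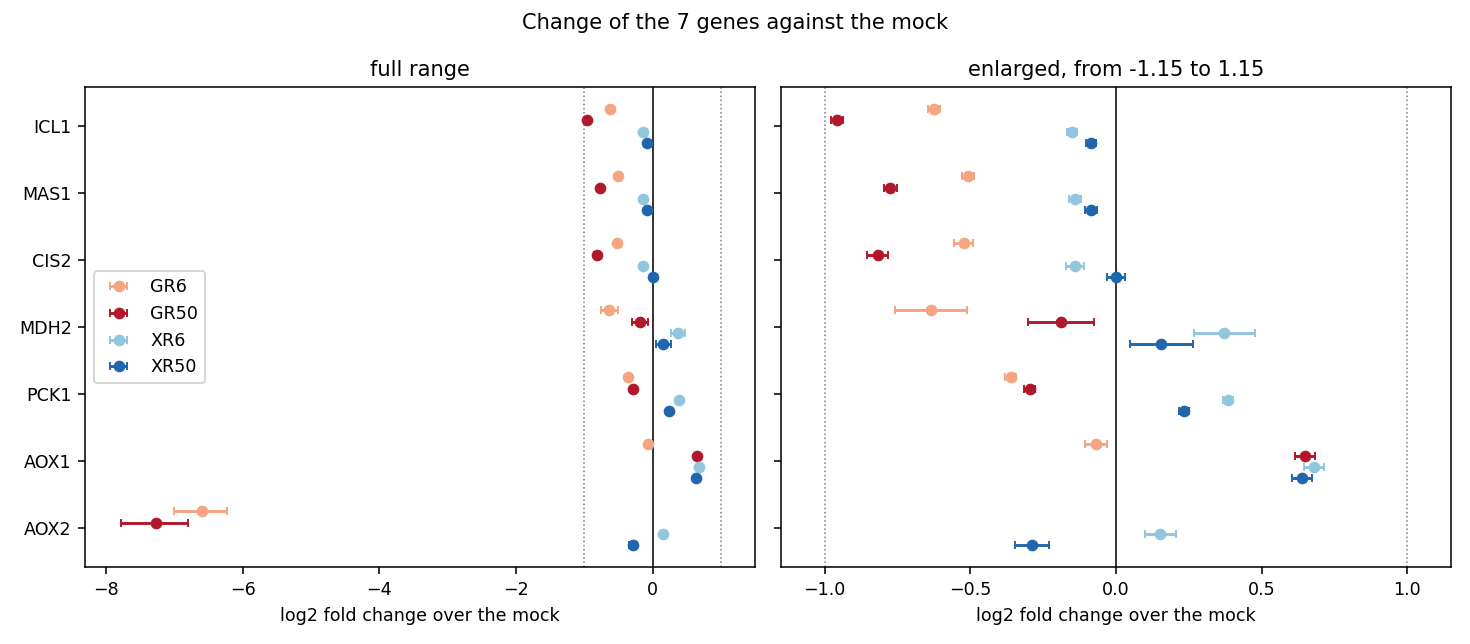
Log2-transformed fold change against the mock (horizontal axis) of each gene (rows) in GR6, GR50, XR6 and XR50, over the full range on the left and enlarged on the right, with bars for the exact 95% interval of the counts and dotted lines at 2-fold. *AOX2* in GR6 (-6.60) and GR50 (-7.26) is the only value past 2-fold, and the enlarged panel leaves these 2 points out.

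*ICL1*, *MAS1* and *CIS2* had lower levels in GR6 and GR50 than in the mock by more than the counting error, but none of them passed 2-fold or the test of radiation type or dose. *ICL1*, isocitrate lyase, splits isocitrate into succinate and glyoxylate and lies on chromosome 6 from 5284370 to 5288359. It had 36201 counts in GR6, 30076 in GR50, 52029 in XR6 and 53396 in XR50, against 52520 in the mock. The levels were 1882 CPM in GR6, 1493 CPM in GR50, 2615 CPM in XR6 and 2735 CPM in XR50, against 2903 CPM in the mock. GR50 was the lowest library and GR6 the next. The log2-transformed fold change was -0.63 (-0.64 to -0.61) in GR6, -0.96 (-0.98 to -0.94) in GR50, -0.15 (-0.17 to -0.13) in XR6 and -0.086 (-0.10 to -0.069) in XR50. In GR50 the level was 1.94-fold lower than in the mock, just inside the 2-fold threshold. The next gene, 10 bp beyond *ICL1*, had 8973 counts in GR6, 8988 in GR50, 11414 in XR6 and 11751 in XR50, against 10067 in the mock, and its part in the counts of *ICL1* was not tested.

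*MAS1*, malate synthase, joins glyoxylate and acetyl-CoA to malate and lies on chromosome 3 from 356536 to 361981. It had 30873 counts in GR6, 26870 in GR50, 41181 in XR6 and 42017 in XR50, against 41311 in the mock. Log2-transformed, the difference from the mock was -0.51 in GR6, -0.78 in GR50, -0.14 in XR6 and -0.086 in XR50, the same order of libraries as for *ICL1*. *CIS2*, a citrate synthase that joins oxaloacetate and acetyl-CoA, lies on the same chromosome from 1129580 to 1134612. It had 12061 counts in GR6, 10293 in GR50, 16258 in XR6 and 17600 in XR50, against 16304 in the mock. Its values were -0.52 in GR6, -0.82 in GR50, -0.14 in XR6 and 0.00040 (-0.030 to 0.031) in XR50, where no difference from the mock was detectable at this depth.

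These 3 genes kept nearly the same ratio in every library. *MAS1* had 0.853 counts per count of *ICL1* in GR6 and 0.893 in GR50, against 0.792 in XR6, 0.787 in XR50 and 0.787 in the mock, so that the highest ratio was 1.14 times the lowest. For *CIS2* the ratio to *ICL1* ranged from 0.310 in the mock to 0.342 in GR50, or 1.10 times. Both ratios were higher in GR6 and GR50 than in the mock, with intervals that did not overlap, so that *ICL1* was lower against the mock than the other 2 by a small margin. In both γ-irradiated libraries the values of the 3 genes lay below their values in XR6, XR50 and the mock, also with library totals. The small differences of XR6 from the mock turned to 0.056 for *ICL1* and 0.065 for both *MAS1* and *CIS2* with library totals, and those of XR50 became -0.022 for *ICL1*, -0.022 for *MAS1* and 0.064 for *CIS2*.

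Within the γ-irradiated libraries, the 3 genes were lower at 50 Gy than at 6 Gy, by a log2 value of -0.33 (-0.36 to -0.31) for *ICL1*, -0.27 (-0.29 to -0.24) for *MAS1* and -0.30 (-0.33 to -0.26) for *CIS2*. XR50 exceeded XR6 by 0.064, 0.056 and 0.14 for the same genes with TMM, and this changed sign for all 3 with library totals. At 50 Gy, γ-irradiated cells had less of each than X-irradiated cells, with -0.87 for *ICL1*, -0.69 for *MAS1* and -0.82 for *CIS2*. At 6 Gy the differences of GR6 from XR6 were -0.48, -0.37 and -0.38 for the same genes.

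In the additive fit, the radiation type effect was -0.67 (standard error 0.29, 95% interval -1.24 to -0.10) for *ICL1*, with an adjusted p of 0.136 by edgeR's quasi-likelihood test. It was -0.53 (-1.09 to 0.038) for *MAS1* and -0.60 (-1.17 to -0.033) for *CIS2*, with adjusted p-values of 0.297 and 0.207 in the same test. None of the 3 passed an adjusted p of 0.05, although the direction was the same at both doses. In simulated data, where 200 of 14112 genes were changed, this fit called 7% of the genes given a 2-fold type effect. The irradiated libraries gave many more calls by type, 866 higher and 546 lower, so that the adjustment was less strict for them. The simulated share therefore does not give the chance that an effect of this size passes here. The lowest adjusted p over the alternatives was 0.0779, for *ICL1* with library totals, also by edgeR's quasi-likelihood test. Their dose effects were -0.14, -0.11 and -0.079, with intervals reaching from -0.70 to 0.49.

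**Figure D3:**
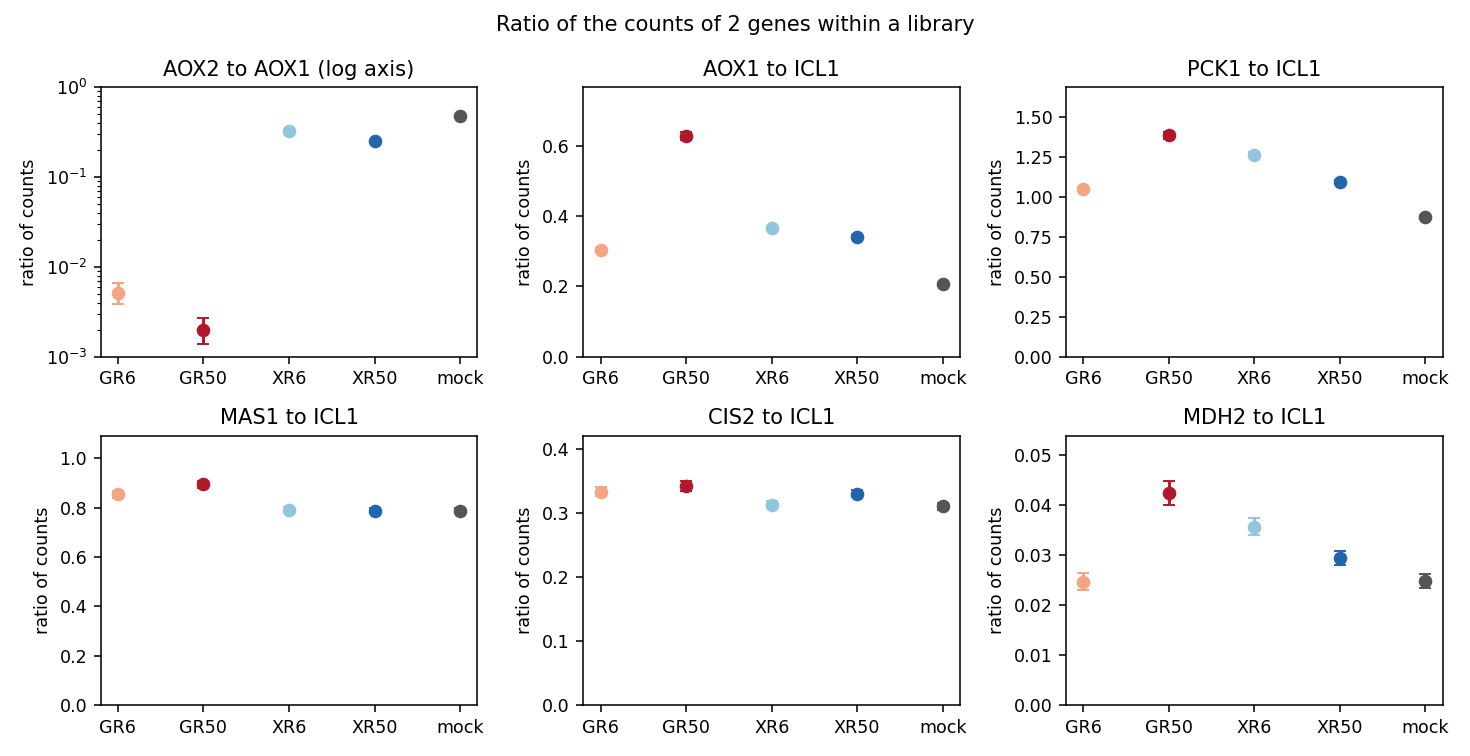
Ratio of the counts of 2 genes within each library (vertical axes, the top left panel on a log axis) for GR6, GR50, XR6, XR50 and the mock, 1 library per point, with exact 95% intervals of the counts. *AOX2* to *AOX1* was 0.00511 in GR6 and 0.00196 in GR50 against 0.473 in the mock, whereas *MAS1* to *ICL1* and *CIS2* to *ICL1* varied by at most 1.14 times.

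*MDH2* and *PCK1* took another course, above the mock after X-irradiation and below it after γ-irradiation. *PCK1*, phosphoenolpyruvate carboxykinase, turns oxaloacetate into phosphoenolpyruvate at the entry to gluconeogenesis, and lies on chromosome 2 from 7897189 to 7902738. It had 38048 counts in GR6, 41706 in GR50, 65935 in XR6 and 58347 in XR50, against 45993 in the mock. Its levels were 1978 CPM in GR6, 2070 CPM in GR50, 3314 CPM in XR6 and 2988 CPM in XR50, against 2542 CPM in the mock. The mock thus lay between the radiation types. The log2-transformed fold change was -0.36 (-0.38 to -0.34) in GR6, -0.30 (-0.32 to -0.28) in GR50, 0.38 (0.37 to 0.40) in XR6 and 0.23 (0.22 to 0.25) in XR50. Set against *ICL1*, *PCK1* had 1.05 counts per count in GR6, 1.39 in GR50, 1.27 in XR6 and 1.09 in XR50, against 0.876 in the mock. This ratio was thus higher in all 4 irradiated libraries than in the mock, and no interval overlapped that of the mock.

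*MDH2*, an NAD-dependent malate dehydrogenase that regenerates oxaloacetate, lies on chromosome 10 from 798235 to 802160. It had 894 counts in GR6, 1275 in GR50, 1857 in XR6 and 1569 in XR50, against 1305 in the mock. Its levels were 46.5 CPM in GR6, 63.3 CPM in GR50, 93.3 CPM in XR6 and 80.4 CPM in XR50, against 72.1 CPM in the mock. The log2-transformed fold change was -0.63 (-0.76 to -0.51) in GR6, -0.19 (-0.30 to -0.076) in GR50, 0.37 (0.27 to 0.48) in XR6 and 0.16 (0.049 to 0.26) in XR50. As for *PCK1*, the largest differences in either direction were found at 6 Gy, and GR6 was 2.01-fold lower than XR6 (1.85 to 2.18) for *MDH2*. Against *ICL1*, *MDH2* had 0.0247 counts per count in GR6, 0.0424 in GR50, 0.0357 in XR6 and 0.0294 in XR50, against 0.0248 in the mock, so that GR6 and the mock could not be separated in this ratio. With library totals the XR6 value was 0.58 for *MDH2* and 0.59 for *PCK1*, and *MDH2* in GR50 was at -0.11 with an interval that includes 0 (-0.22 to 0.0014). The next gene on the side of lower coordinates, 2598 bp away, had 7 counts in GR6 and 11 in GR50, against 62 in XR6, 67 in XR50 and 47 in the mock. The type effect was -0.67 (standard error 0.31) for *MDH2* and -0.64 (0.29) for *PCK1*, with adjusted p-values of 0.187 and 0.173 by edgeR's quasi-likelihood test, so that neither passed. Their dose effects were 0.11 (-0.50 to 0.73) for *MDH2* and -0.044 (-0.61 to 0.52) for *PCK1*.

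Counted over the list, 0 of the 7 genes were more than 2-fold above the mock in any irradiated library, beside 8.05% of all genes in GR6, 14.1% in GR50, 8.61% in XR6 and 6.67% in XR50. Below the mock, 1 of the 7, *AOX2*, passed 2-fold in GR6 and in GR50, beside 5.81% and 9.34% of all genes there, and 0 passed in XR6 and XR50, beside 5.13% and 5%. These shares are of the genes with a count in both libraries. Against genes averaging 10 counts or more they were lower. Below the mock they were then 4.10% in GR6, 7.51% in GR50, 3.26% in XR6 and 3.05% in XR50. With 7 genes, a count of 0 or 1 is near these shares. At 1.5-fold, *AOX1* was above the mock in GR50, XR6 and XR50, where 24.3%, 19.7% and 13.1% of all genes were, and 0 of the 7 were above it in GR6, beside 18.2%. Below the mock by that fold were 3 of the 7 in GR6, beside 14% of all genes, and 4 of the 7 in GR50, beside 20.8%. None was in XR6 or XR50, beside 15.2% and 12.2%. The 7 genes had a median difference from the mock, on the log2 scale, of -0.52 in GR6, -0.78 in GR50, 0.15 in XR6 and 0.00040 in XR50, against -0.011, -0.011, 0.00056 and -0.031 for all genes in the same order. All 7 genes were lower than the mock in GR6 and 6 of 7 in GR50, against 50.9% and 50.6% of all genes, and 3 of 7 were lower in XR6 and in XR50, against 49.9% and 52.8%. With library totals *AOX1* in GR6 was at 0.038. *ICL1*, *MAS1* and *CIS2* in XR6 were at 0.056, 0.065 and 0.065. The counts of GR6 and XR6 thus depend on the scaling.

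In the additive fit, 1 of the 7 genes, *AOX2*, was lower after γ- than after X-irradiation at an adjusted p under 0.05, beside 3.87% of the 14112 genes. None was higher, beside 6.14%. All 7 type effects were negative, from -6.86 to -0.37 with a median of -0.64 against 0.011 for all genes, and 5 of the 7 had an unadjusted p under 0.05, beside 20.3% of all genes. That member count ranged from 3 with the Wald test of DESeq2 to 6 with library totals or with radiation type fitted alone. By dose, 0 of the 7 genes passed in edgeR's quasi-likelihood test, beside 1.84% of all genes higher and 0.0354% lower at 50 Gy. Without adjustment 0 of the 7 had a p under 0.05 either, beside 6.51% of all genes, and DESeq2 called 0. With library totals 1 of the 7, *AOX2*, had an unadjusted p under 0.05, among 761 of the 14112 genes. Over the 7 genes the dose effects had a median of -0.079 against -0.018 for all genes, and their standard errors lay between 0.29 and 0.33. The intervals of the dose effects reached down to -1.17 for *AOX2* and up to 0.90 for *AOX1*. This fit thus leaves room for a change of near 2-fold downward in *AOX2* and upward in *AOX1*. For the other members the intervals reached from -0.70 (*ICL1*) to 0.73 (*MDH2*).

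**Figure D4:**
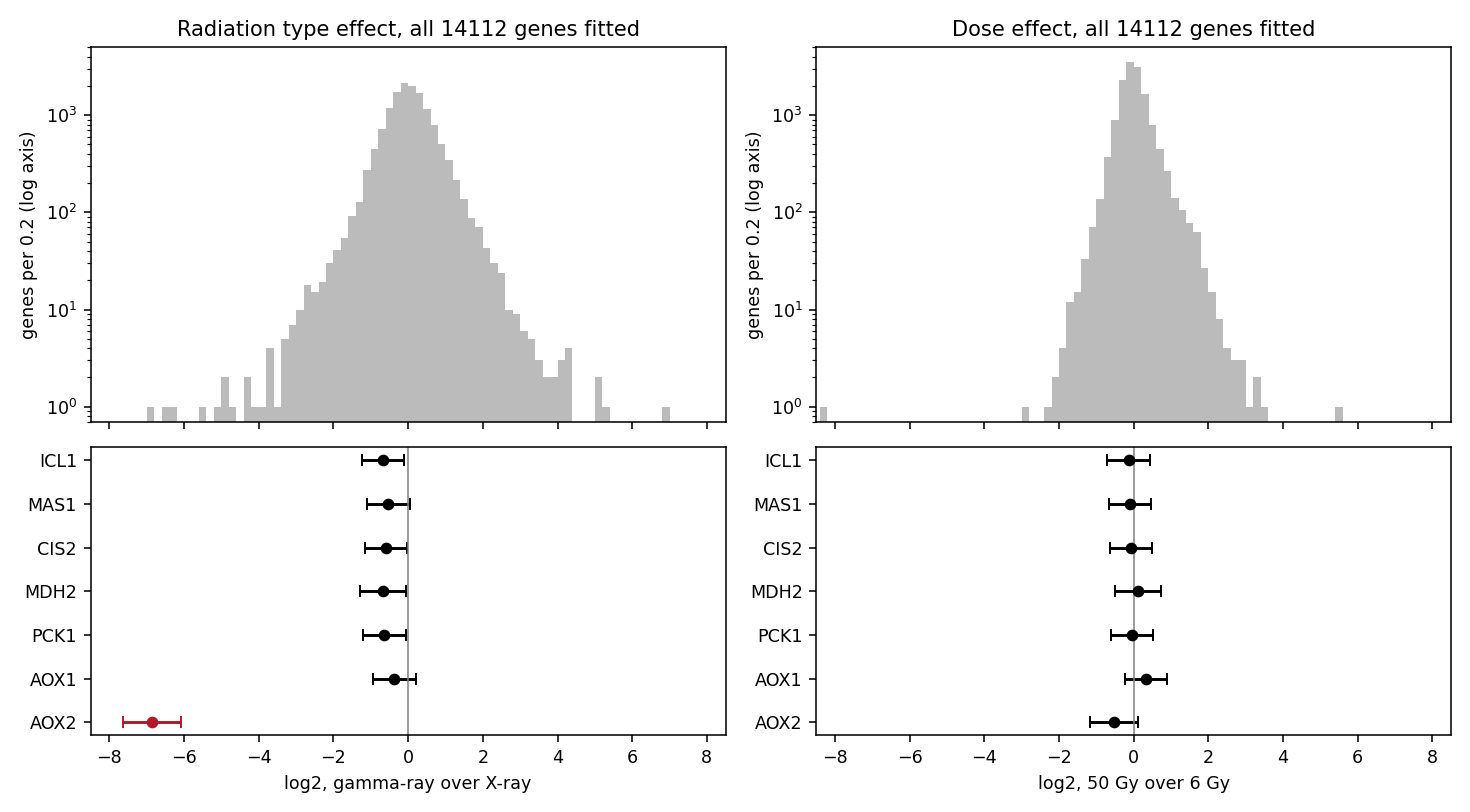
Radiation type effect (left, log2 of γ- over X-irradiation) and dose effect (right, log2 of 50 Gy over 6 Gy) of the additive fit over GR6, GR50, XR6 and XR50, as the distribution over all 14112 genes fitted (top, log axis) and for each of the 7 genes with its 95% interval (bottom). *AOX2*, in red, is the 1 gene of the 7 that passed an adjusted p of 0.05, with a type effect of -6.86 at the end of the distribution.

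The likeness between the courses of 2 genes was measured as the root mean square difference of their 4 log2-transformed fold changes against the mock. *MAS1* and *CIS2* were the closest pair of the 7 at 0.049, followed by *ICL1* with *CIS2* at 0.097 and with *MAS1* at 0.11. *MDH2* and *PCK1* were at 0.15 from each other and at 0.40 to 0.48 from the 3 genes above. *AOX1* was nearest to *PCK1* at 0.55, and *AOX2* was at 4.35 or more from every other member. Of the 10764 genes that averaged 50 counts or more, the 2 closest to *ICL1* were CHLRE_07g347450v5 (0.049) and CHLRE_05g248500v5 (0.049), and the 2 closest to *AOX1* were CHLRE_03g158250v5 (0.052) and CHLRE_13g572050v5 (0.070). Genes outside the list can thus be closer to *ICL1* over 4 values than *MAS1* and *CIS2* were. The closest gene to *AOX2* was at 1.25. The reference gave no symbol other than the ORF name for any counted gene, so that these genes are given by their ID alone and further genes of acetate use were not analysed here.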

How the data were processed

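RNA-Seq counts of 5 libraries, 1 per condition, were analysed. Per the labels, reads were trimmed (Trimmomatic 0.36), aligned (HISAT2 2.2.1) and counted per gene (HTSeq 0.11.3) by the authors. The deposited values are raw counts of 17742 genes, followed by 5 counters of unassigned reads, which held between 44.1% and 50.7% of the reads listed and were left out. Whether HTSeq counted by strand is not given in the sources used here. The methods describe 3 biological replicates, while each condition has 1 library in the counts used here, so that no replicate error was available and pooling is not known. No gene overlaps a member in the annotation. All ORF names matched the NCBI v5.5 table, which supplied positions, and the gene names came with the list.

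Counts were scaled with TMM (edgeR 4.0.16, R 4.3.3), and intervals were computed with scipy 1.17.1 at 95%. Values at or below 3 counts would have been treated as a floor, which no member reached. Dose and radiation type were fitted additively to the 4 irradiated libraries with glmQLFit and glmQLFTest across all genes passing filterByExpr, with Benjamini-Hochberg adjustment over 14112 genes at a threshold of 0.05 (common biological coefficient of variation 0.242). Both steps were tested on simulated data. There 200 of the 14112 genes were changed in each run. The fit called 10.5% of genes changed 2-fold by dose and 7% of those changed 2-fold by radiation type. For genes changed 4-fold it called 88% and 89.5%. The irradiated libraries gave more calls than these runs, so that the adjustment was stricter in the simulated data. Alternatives were library totals, the size factors and the Wald test of DESeq2 1.42.0, a prior count of 1, a 1.5-fold threshold, a background of genes averaging 10 counts or more, a filter of 1 count in any library, and each factor fitted alone. Every member is named. The 2 genes most like *ICL1* and *AOX1* were taken from genes averaging 50 counts or more. The members, lists and tests were chosen with earlier results of these data known.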

Additional observations from a re-analysis of the deposited data

Results flagged for a closer look

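*AOX2* differed between the radiation types by a log2 value of -6.86 (γ- over X-irradiation), in a test of that difference itself (adjusted p = 4.96e-62 by edgeR's quasi-likelihood test). With radiation type fitted alone, the adjusted p was 0.000536 by edgeR's quasi-likelihood test. Radiation type goes with handling and exposure here, and these cannot be told apart.

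*PCK1* and *MDH2* lay on opposite sides of the mock after the 2 radiation types, which was not tested. *PCK1* was at -0.36 in GR6 and -0.30 in GR50, against 0.38 in XR6 and 0.23 in XR50. *MDH2* was at -0.63 in GR6 and -0.19 in GR50, against 0.37 in XR6 and 0.16 in XR50. All of these differ from 0 by more than the counting error with TMM and share the mock. With library totals *MDH2* in GR50 was at -0.11 (-0.22 to 0.0014), an interval that includes 0.

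The step from 6 to 50 Gy went in opposite directions after the 2 radiation types for 3 genes, which was not tested either, with 1 library on each side. GR50 over GR6 was 0.72 for *AOX1*, 0.45 for *MDH2* and 0.066 for *PCK1*, whereas XR50 over XR6 was -0.041, -0.22 and -0.15 for the same genes. With library totals the X-irradiation steps were -0.18, -0.36 and -0.29, in the same direction.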

How the results depend on the processing

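The radiation type effect of *AOX2* passed an adjusted p of 0.05 under every alternative run (value between -6.90 and -6.84), and 0 other members passed for type or dose under any of them. By size, the type effect of *AOX2* was at rank 2 from the lowest with the Wald test of DESeq2, and the lowest of all genes under the other alternatives. Library totals in place of TMM turned 7 small differences: XR6 over the mock to 0.056 for *ICL1*, 0.065 for *MAS1* and 0.065 for *CIS2*, GR6 over the mock to 0.038 for *AOX1*, and XR50 over XR6 to -0.078 for *ICL1*, -0.086 for *MAS1* and -0.00090 for *CIS2*. With a 1.5-fold threshold, the members above the mock were 1 in XR6, 1 in XR50 and 1 in GR50, and those below it were 3 in GR6 and 4 in GR50, beside 19.7%, 13.1% and 24.3% of all genes above and 14% and 20.8% below in the same order. The numbers of all genes with a dose effect fell to 73 higher and 4 lower with library totals, 143 and 4 with the size factors of DESeq2, 94 and 1 with its Wald test, and 0 with dose fitted alone (359 at an unadjusted p under 0.05), against 260 and 5. For the type effect they were 531 and 434 with library totals, 485 and 324 with the Wald test and 281 and 250 with type fitted alone, against 866 and 546. No paired analysis was possible because the libraries carry no replicate numbers that could pair them, with 1 per condition. The additive fit itself compares the radiation types within dose.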
